A study of Rattus norvegicus with 8 samples.

Results

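The genes described here are 10 members of the regulator of G-protein signalling (RGS) family that were measured in the 2 compartments of cultured rat hippocampal neurons: Rgs2, Rgs3, Rgs4, Rgs6, Rgs7, Rgs8, Rgs10, Rgs14, Rgs17 and Rgs20. They were taken by symbol from a table of read counts for 28909 gene symbols, and all 10 passed the filter of more than 20 reads in at least 2 libraries that 14309 genes passed. Primary neurons of embryonic Sprague-Dawley rats were grown on porous filter inserts, so that the somata stayed on the upper side while processes, both axons and dendrites, reached the lower side. Cultures received picrotoxin (PTX), a blocker of the GABA-A receptor that raises network activity, for 48 h from day 18 to day 20 in vitro, or only the vehicle ethanol as control. Ribosome-depleted RNA was sequenced from 4 groups with 2 libraries each: somata control, somata PTX, processes control and processes PTX. The compartment label of the lower side is processes, although another label of the same libraries names dendrites. The labels do not say whether the 2 libraries of a group came from separate cultures, so the p-values below measure the spread between these libraries, which may be technical.

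The libraries held between 12290890 and 18455662 counts. Genes outside the mitochondrial genome received 9517542 to 11227599 counts in a somata library and 4702054 to 5491237 in a processes library, so every RGS gene was measured with fewer reads in processes. The least read of the 10 genes, Rgs14, had 26 to 72 reads in a processes library, whereas Rgs4, with the most reads, had 336 to 796 there. Levels are given as CPM, counts scaled to a common library size, after TMM scaling, which sets each library by its typical gene. An order of levels across the compartments holds on this scale alone. Levels of the RGS genes were compared between libraries for 1 gene and not between genes, because transcript lengths were not used here. A marker called the most abundant of its list had the highest CPM, which is not corrected for transcript length. In bulk RNA, fewer cells of a type and less RNA per cell cannot be told apart. Where all libraries of a group lie above or below those of another, this describes few libraries and is not a test. How many of all tested genes show such an order was not counted.

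RGS proteins bind the active, GTP-loaded alpha subunits of heterotrimeric G proteins and speed up GTP hydrolysis, which ends the signal of G-protein-coupled receptors. In neurons they shorten the effects of Gi/o- and Gq-coupled receptors on potassium channels, calcium channels and phospholipase C. The 10 genes fall into 4 subfamilies. Rgs2, Rgs3, Rgs4 and Rgs8 belong to the R4 subfamily of mostly small proteins, and Rgs6 and Rgs7 to the R7 subfamily, whose proteins are stable only in a complex with the G-protein beta subunit Gnb5. Rgs10 and Rgs14 belong to the R12 subfamily and Rgs17 and Rgs20 to the RZ subfamily.

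Of these genes, Rgs2, Rgs4, Rgs7 and Rgs8 lie on chromosome 13 of the rat genome, Rgs3 and Rgs20 on chromosome 5, Rgs10 and Rgs17 on chromosome 1, Rgs6 on chromosome 6 and Rgs14 on chromosome 17. A RefSeq window upstream of the annotated start (build GRCr8, a later build than the one used for counting) was found for 9 of the 10 genes. The 250 bases before the start are printed for the 3 genes that moved together with PTX, Rgs2, Rgs4 and Rgs7, and for Rgs8, a paralog on the same chromosome which did not pass the test. They run 5′ to 3′ on the strand of the gene, from chr13:58352667-58352916 on the minus strand for Rgs2, chr13:84475885-84476134 on the minus strand for Rgs4, chr13:89941051-89941300 on the minus strand for Rgs7 and chr13:68366648-68366897 on the plus strand for Rgs8. Capitals mark letters searched for on both strands: the CRE half-site CGTCA, the CCAAT box and TATAAA.
Rgs2: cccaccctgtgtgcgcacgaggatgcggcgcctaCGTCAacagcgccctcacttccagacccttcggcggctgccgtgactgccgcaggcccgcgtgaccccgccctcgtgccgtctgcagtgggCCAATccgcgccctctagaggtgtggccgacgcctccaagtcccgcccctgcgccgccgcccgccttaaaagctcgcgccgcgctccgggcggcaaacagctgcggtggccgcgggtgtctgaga
Rgs4: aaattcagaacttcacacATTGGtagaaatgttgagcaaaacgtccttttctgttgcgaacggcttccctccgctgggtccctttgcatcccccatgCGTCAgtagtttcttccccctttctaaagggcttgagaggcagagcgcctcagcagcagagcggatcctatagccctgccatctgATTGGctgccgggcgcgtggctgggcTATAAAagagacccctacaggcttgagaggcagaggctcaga
Rgs7: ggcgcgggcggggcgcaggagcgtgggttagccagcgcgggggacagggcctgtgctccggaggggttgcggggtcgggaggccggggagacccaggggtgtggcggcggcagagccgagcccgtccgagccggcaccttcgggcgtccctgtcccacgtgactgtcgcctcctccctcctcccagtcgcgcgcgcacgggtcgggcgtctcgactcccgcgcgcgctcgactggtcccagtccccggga
Rgs8: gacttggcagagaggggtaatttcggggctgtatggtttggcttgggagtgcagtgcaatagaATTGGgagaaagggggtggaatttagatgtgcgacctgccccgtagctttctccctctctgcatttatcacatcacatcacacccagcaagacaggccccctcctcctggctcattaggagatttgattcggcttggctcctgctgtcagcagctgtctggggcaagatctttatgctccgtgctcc

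The window of Rgs2 held the half-site CGTCA at 216 to 212 bases before the start and CCAAT at 125 to 121. In Rgs4 the half-site stood at 153 to 149 bases before the start, CCAAT on the opposite strand at 232 to 228 and at 68 to 64, and TATAAA at 42 to 37. The window of Rgs7, with 77.2% G and C, held none of the letters searched, and that of Rgs8 held only CCAAT on the opposite strand, at 187 to 183. None of these 4 windows held the full CRE TGACGTCA, which contains the half-site, or the AP-1 motif TGANTCA. Of the windows not printed, that of Rgs3 held the half-site on the opposite strand, at 29 to 25, and TATAAA at 184 to 179. That of Rgs17 held the AP-1 motif at 137 to 131, and neither gene was called with PTX. Among all 33469 windows, which were searched at the same length, 18.2% held the half-site, 34% CCAAT, 12.9% TATAAA, 6.34% the AP-1 motif and 1.59% the full CRE. A match describes the letters of the window and is not a measurement of binding.

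PTX raised 3 of the 10 RGS genes in somata, Rgs2, Rgs4 and Rgs7, by 1.97- to 2.36-fold, and lowered none. Among all tested genes, 2.09% were raised and 1.5% lowered by PTX in somata. The same 3 genes were raised in processes and none was lowered, where 1.64% of tested genes were raised and 2.1% lowered. A gene is called raised or lowered by PTX at an adjusted p under 0.05 in edgeR's quasi-likelihood test with Benjamini-Hochberg adjustment over all tested genes. The median log2 fold change of the 10 genes was 0.14 in somata and -0.02 in processes, against -0.01 for all tested genes in either compartment. Rgs4, Rgs2 and Rgs7 ranked 132, 159 and 209 from the highest of 14309 log2 fold changes in somata, and 305, 361 and 587 in processes.

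**Figure D1:**
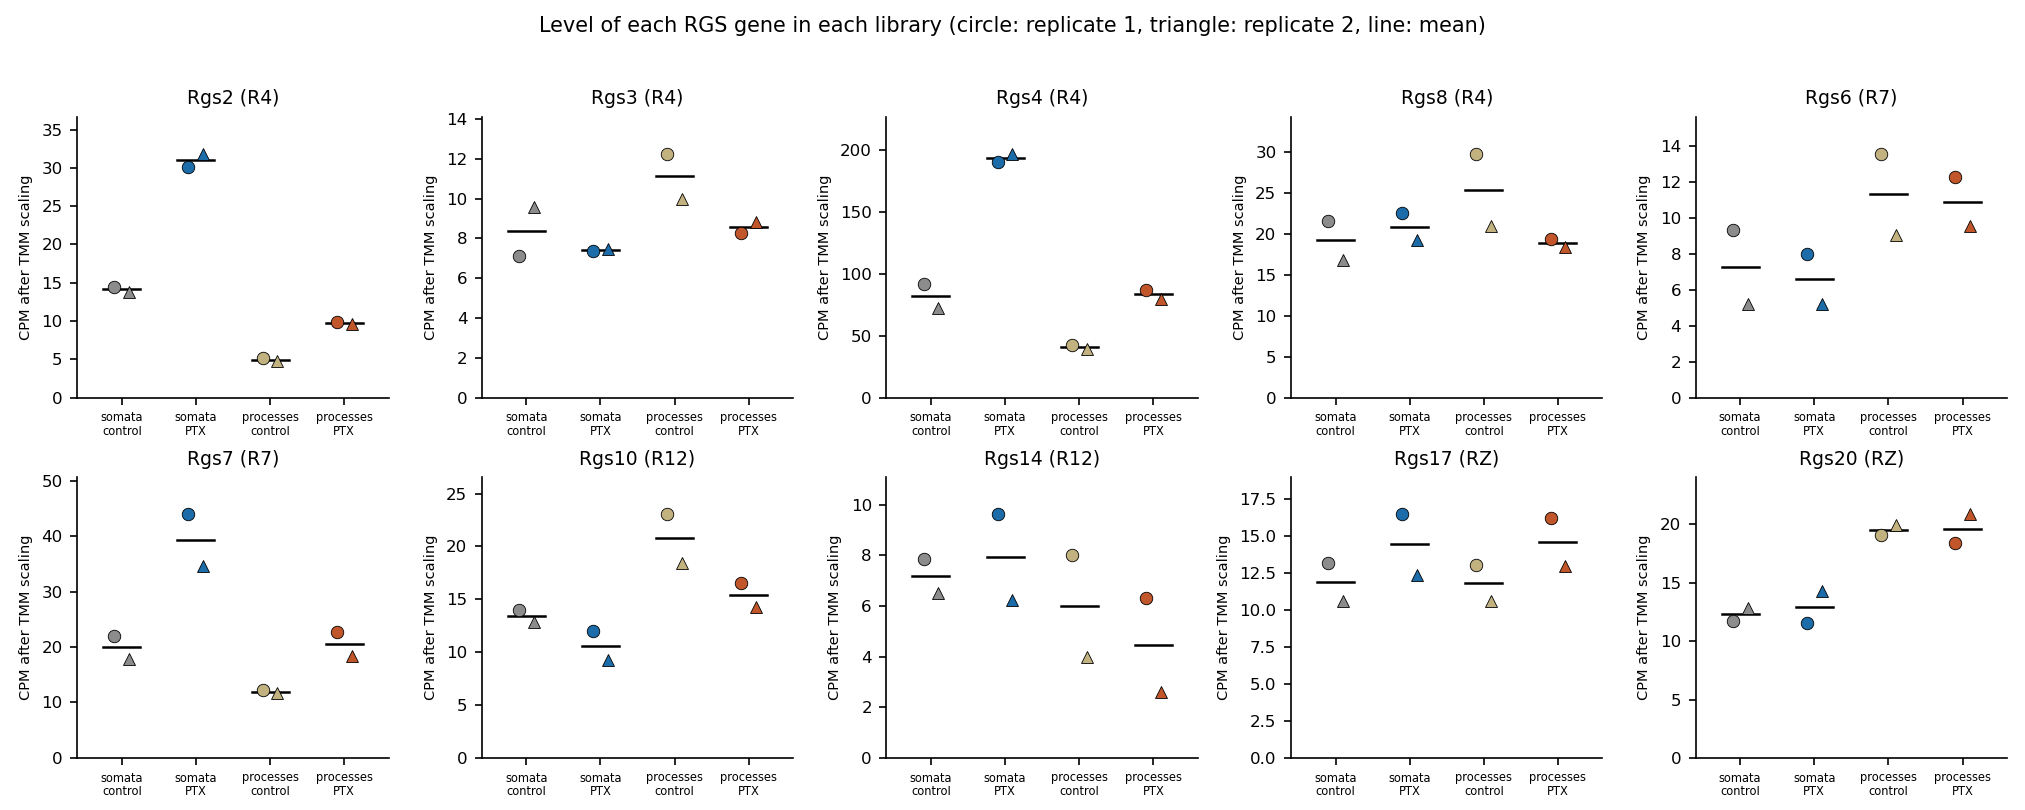
Level of each of the 10 RGS genes in CPM after TMM scaling (vertical axes, each starting at 0) in the somata and processes of control and PTX cultures. Circles are replicate 1, triangles replicate 2 and lines the mean of the 2; Rgs2, Rgs4 and Rgs7 are higher in both PTX libraries than in both control libraries of each compartment.

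Rgs4, an R4 protein that acts on Gi/o and Gq alpha subunits and is abundant in forebrain neurons, was measured at 91.6 and 72.7 CPM in somata control libraries and at 190 and 197 CPM in somata PTX libraries. In processes it was at 42.3 and 39.5 CPM in control and 86.7 and 80.0 CPM in PTX libraries. In each compartment both PTX libraries lay above both control libraries. Its log2 fold change with PTX was 1.24 in somata (SE 0.12, adjusted p = 0.000588), a rise of 2.36-fold, and 1.03 in processes (SE 0.13, adjusted p = 0.00392), a rise of 2.04-fold. The mean of Rgs4 in PTX-treated processes, 83.4 ± 4.71 CPM (SD, n = 2), lay within the libraries of control somata, 82.1 ± 13.4 CPM (SD, n = 2), on the TMM scale, with somata PTX highest and processes control lowest. By library size alone its log2 fold change of processes against somata in control cultures was -2.82, more than its rise of 1.08 with PTX in processes, so that processes PTX then lay below control somata.

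Rgs2, an R4 protein that prefers Gq alpha subunits and is known as a gene induced by neuronal activity, was measured at 14.5 and 13.8 CPM in somata control libraries and at 30.2 and 31.9 CPM in somata PTX libraries. In processes the values were 5.13 and 4.81 CPM in control and 9.88 and 9.55 CPM in PTX libraries, from 41 to 46 and 86 to 95 reads. On the TMM scale the 4 groups of Rgs2 did not overlap, with somata PTX highest, then somata control, processes PTX and processes control. Its log2 fold change was 1.13 in somata (SE 0.12, adjusted p = 0.000646) and 0.96 in processes (SE 0.16, adjusted p = 0.0108). The call in processes was kept with the replicate number in the fit as a block (adjusted p = 0.00102) and with DESeq2 (adjusted p = 0.00609). It depended on the number of libraries. It was lost with only the 4 processes libraries in the fit (adjusted p = 0.0517), and in 3 of the 4 fits that each left out 1 processes library, without replicate 1 of the control group (0.0669), replicate 1 of the PTX group (0.0585) or replicate 2 of the PTX group (0.0517), while the log2 fold change stayed between 0.92 and 1.01.

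Rgs7, an R7 protein that acts on Go alpha subunits and sits with Gnb5 near GABA-B receptors and GIRK channels, was measured at 22.1 and 17.9 CPM in somata control libraries and at 44.0 and 34.6 CPM in somata PTX libraries. In processes it was at 12.3 and 11.6 CPM in control and 22.7 and 18.3 CPM in PTX libraries. PTX and control libraries did not overlap in either compartment. The log2 fold change was 0.98 in somata (SE 0.16, adjusted p = 0.00698) and 0.78 in processes (SE 0.19, adjusted p = 0.0489). With the replicate number in the fit as a block, the adjusted p in processes was 0.00044, and with DESeq2 it was 0.0139. In somata the call of Rgs7 was lost without replicate 2 of the control group (log2 fold change 0.82, adjusted p = 0.0976) and without replicate 1 of the PTX group (0.79, adjusted p = 0.0647). In processes it was lost with only the 4 processes libraries in the fit (adjusted p = 0.0507) and without any 1 of them, with log2 fold changes from 0.61 to 0.93 and adjusted p from 0.0837 to 0.234.

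The other R4 genes did not pass the test. Rgs8, which acts on Gi/o alpha subunits and is known from Purkinje cells, was measured at 21.5 and 16.8 CPM in somata control and 22.5 and 19.2 CPM in somata PTX libraries, which overlapped. In processes it was at 29.8 and 20.9 CPM in control and 19.3 and 18.4 CPM in PTX libraries, so that both PTX libraries lay below both control libraries. Its log2 fold change was 0.12 in somata (SE 0.17, adjusted p = 0.835) and -0.43 in processes (SE 0.19, adjusted p = 0.295). Without 1 processes library, the value in processes ranged from -0.66 to -0.15. When the replicate number entered the fit as a block, the value in processes was -0.41 (SE 0.13) with an adjusted p of 0.0458 in the same test. Rgs3, an R4 member with long and short forms, had a log2 fold change of -0.18 in somata, with overlapping libraries, and of -0.38 in processes (adjusted p = 0.382), where control libraries were at 12.3 and 9.98 CPM and PTX libraries at 8.27 and 8.85 CPM.

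Rgs10, a small R12 protein that acts on Gi alpha subunits, was lower in both PTX libraries than in both control libraries of each compartment, without passing the test. It was measured at 14.0 and 12.9 CPM in somata control and 12.01 and 9.23 CPM in somata PTX libraries, and at 23.1 and 18.4 CPM in processes control and 16.5 and 14.3 CPM in processes PTX libraries. The log2 fold change was -0.34 in somata (SE 0.16, adjusted p = 0.373) and -0.43 in processes (SE 0.18, adjusted p = 0.253). With the replicate block, the value in processes was -0.43 with an adjusted p of 0.0494, and that in somata -0.34 with an adjusted p of 0.058. With the block, then, 5 of the 10 genes passed in processes, Rgs2, Rgs4 and Rgs7 as raised and Rgs8 and Rgs10 as lowered, and 1601 of all tested genes passed in place of 535.

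Rgs10 is abundant in microglia as well as in neurons. Of 10 microglia markers, 9 were in the table and none passed the filter. Their summed level was between 1.06 and 3.42 CPM in every library, Cd68 was at most 0.899 CPM, and Ctss was at 0 to 2 reads. Csf1r had 14 and 27 reads in the somata PTX libraries. The microglia markers were thus low in these libraries, and the part of microglia in the values of Rgs10 was not tested.

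The remaining 4 genes had log2 fold changes with PTX whose 95% intervals included 0 in both compartments. Rgs6, the R7 paralog of Rgs7, was measured at 9.35 and 5.21 CPM in somata control, 8.02 and 5.21 in somata PTX, 13.6 and 9.04 in processes control and 12.3 and 9.55 CPM in processes PTX libraries. Its log2 fold changes were -0.13 in somata (95% interval -0.78 to 0.53) and -0.06 in processes (-0.78 to 0.66), while those of Rgs7 had intervals of 0.64 to 1.32 and 0.36 to 1.19. Rgs14, an R12 scaffold protein known from CA2 pyramidal neurons, had values of 0.15 in somata and -0.46 in processes, with the widest interval of the 10 genes in processes (-1.42 to 0.50). The RZ genes act on Gz and Gi/o alpha subunits. Rgs17 had log2 fold changes of 0.28 in somata (-0.12 to 0.69) and 0.30 in processes (-0.17 to 0.77), and Rgs20 of 0.07 (-0.25 to 0.39) and 0.01 (-0.33 to 0.35).

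**Figure D2:**
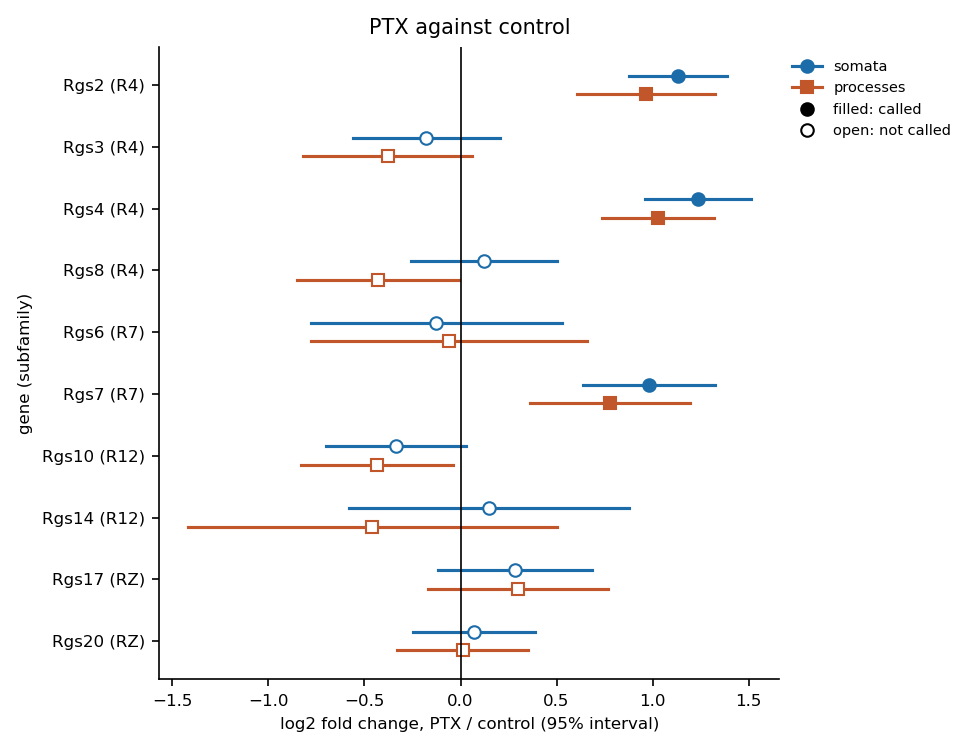
Log2 fold change of PTX against control (horizontal axis) for each RGS gene, with its 95% interval, in somata (circles) and in processes (squares). Filled symbols mark genes called at an adjusted p under 0.05, which are Rgs2, Rgs4 and Rgs7 in both compartments.

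The difference between the PTX effect in processes and that in somata was tested as an interaction, and it was not called for any RGS gene or any other tested gene (0% of 14309 genes in the quasi-likelihood test, smallest adjusted p = 0.115, with 572 genes at an unadjusted p under 0.05). The likelihood ratio test and DESeq2 each called 4 genes and the replicate block 15, none of them an RGS gene. For the 3 raised genes the difference was small and its interval included 0. It was -0.17 for Rgs2 (95% interval -0.62 to 0.28), -0.21 for Rgs4 (-0.61 to 0.19) and -0.20 for Rgs7 (-0.74 to 0.34). Rgs8, positive in somata and negative in processes, had a difference of -0.55 (SE 0.26, 95% interval -1.12 to 0.02, unadjusted p = 0.056), and of -0.54 with the replicate block (SE 0.17, unadjusted p = 0.00469, adjusted p = 0.321).

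Between the compartments, Rgs2 and Rgs4 were enriched in somata, and no RGS gene was enriched in processes. These differences are relative to the typical gene: scaled by library size alone, the median over all tested genes in control cultures moved, on the log2 scale, from -0.05 to -1.86, and all 10 RGS genes then had values below -1. All directions between compartments that follow are those of TMM scaling. Enrichment required an adjusted p under 0.05 and an absolute log2 fold change above 1. In control cultures 7.58% of tested genes were enriched in somata and 11.6% in processes, and in PTX cultures 9.67% and 11.4%. In control cultures the log2 fold change of processes against somata was -1.51 for Rgs2 (SE 0.15, adjusted p = 1.63e-05), a level of 0.352 times that in somata, and -1.01 for Rgs4 (SE 0.13, adjusted p = 0.000119). In PTX cultures the values were -1.68 for Rgs2 (SE 0.13, adjusted p = 3.18e-06) and -1.22 for Rgs4 (SE 0.13, adjusted p = 2.36e-05). The control value of Rgs4 lay at the required size, and it was -0.997 with DESeq2, -0.83 without replicate 1 of somata control and -0.96 without replicate 2 of processes control, each short of 1. The tested neuron markers lay on the same side as Rgs2 and Rgs4, apart from Slc17a7 in PTX cultures. There Slc17a7 had means of 206 CPM in somata and 251 CPM in processes. Of 6 excitatory neuron markers 3 were enriched in somata in control cultures (Slc17a6, Neurod6 and Grin2b) and 2 in PTX cultures (Slc17a6 and Grin2b), with medians of -0.93 and -0.60, and of 6 tested inhibitory neuron markers 0 and 1 (Gad1), with medians of -0.77 and -0.63. Their part in the values of Rgs2 and Rgs4 was not tested.

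Rgs7 was lower in processes than in somata by less than the required size, with a log2 fold change of -0.74 in control cultures (SE 0.18, adjusted p = 0.00633) and -0.94 in PTX cultures (SE 0.16, adjusted p = 0.00084). In PTX cultures it passed the required size without replicate 2 of somata (-1.10) or replicate 1 of processes (-1.10), with upper quartile scaling (-1.12), scaled by counts outside the mitochondrial genome (-1.40) and with at least 10 reads in every library (-1.009). In control cultures it passed when scaled by counts outside the mitochondrial genome (-1.20). For each of the 3 genes raised by PTX, both processes libraries lay below both somata libraries of the same treatment. The paralog of Rgs7, Rgs6, had values of 0.64 (SE 0.31, adjusted p = 0.111) and 0.71 (SE 0.31, adjusted p = 0.0805). Without replicate 1 of the somata group, Rgs6 passed as enriched in processes, at 1.12 in control cultures (adjusted p = 0.022) and 1.07 in PTX cultures (adjusted p = 0.036). In the blocked fit, Rgs6 passed the threshold of p below the required size, at 0.65 in control (adjusted p = 0.00151) and 0.74 in PTX cultures (adjusted p = 0.000446). The R7 paralogs thus had opposite signs with TMM scaling, and by library size alone both were negative.

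Rgs20 and Rgs10 were higher in processes by less than the required size, whereas scaling by library size alone put both lower (-1.14 and -1.19 in control cultures). Rgs20 was at 11.7 and 12.8 CPM in somata control and 11.5 and 14.3 CPM in somata PTX libraries, and at 19.1 and 20.0 CPM in processes control and 18.4 and 20.9 CPM in processes PTX libraries. All 4 processes libraries lay above all 4 somata libraries, and control and PTX overlapped within each compartment. The log2 fold change of Rgs20 was 0.67 in control cultures (SE 0.15, adjusted p = 0.00415) and 0.61 in PTX cultures (SE 0.15, adjusted p = 0.00611). That of Rgs10 was 0.63 (SE 0.17, adjusted p = 0.0111) and 0.53 (SE 0.18, adjusted p = 0.0271). All processes libraries of Rgs10 were likewise above all somata libraries. Scaled by the counts outside the mitochondrial genome, neither passed, with 0.17 for Rgs10 (adjusted p = 0.394) and 0.21 for Rgs20 (adjusted p = 0.250) in control cultures and 0.076 (adjusted p = 0.712) and 0.15 (adjusted p = 0.384) in PTX cultures. Upper quartile scaling also ended the passing of Rgs10, at 0.43 in control (adjusted p = 0.0539) and 0.35 in PTX cultures (adjusted p = 0.108). Without 1 library, the value of Rgs10 ranged from 0.46 to 0.78 in control and from 0.36 to 0.74 in PTX cultures.

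The other 4 genes did not pass with all libraries, TMM scaling and no block. Rgs3 had log2 fold changes of 0.41 in control (adjusted p = 0.0897) and 0.21 in PTX cultures, and Rgs8 of 0.40 (adjusted p = 0.0892) and -0.15. Without 1 library, the control values ranged from 0.22 to 0.63 for Rgs3 and from 0.12 to 0.63 for Rgs8. Rgs17 was at 13.1 and 10.6 CPM in somata control and at 13.0 and 10.6 CPM in processes control libraries, nearly the same values, with log2 fold changes of -0.01 (95% interval -0.45 to 0.44) and 0.01 (-0.42 to 0.44). Rgs14 had -0.25 (adjusted p = 0.613) in control and -0.86 (SE 0.39, adjusted p = 0.0904) in PTX cultures, where processes libraries were at 6.32 and 2.61 CPM and somata libraries at 9.64 and 6.22 CPM. With the block, and below the required size, Rgs3 (adjusted p = 0.0402) and Rgs8 (adjusted p = 0.0068) passed the threshold of p in control cultures and Rgs14 (adjusted p = 0.00164) in PTX cultures. In PTX cultures Rgs14 passed as enriched in somata without replicate 2 of somata or replicate 1 of processes, and with upper quartile scaling (-1.03, adjusted p = 0.0423). It also passed there when scaled by counts outside the mitochondrial genome (-1.31, adjusted p = 0.0117).

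**Figure D3:**
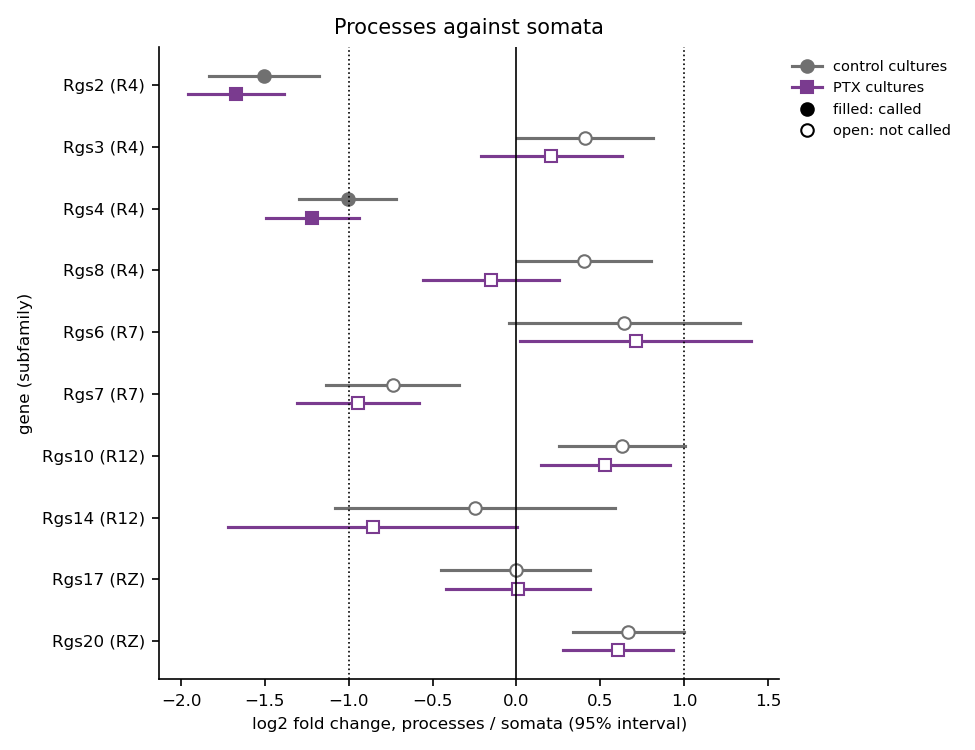
Log2 fold change of processes against somata (horizontal axis) for each RGS gene, with its 95% interval, in control cultures (circles) and PTX cultures (squares). Filled symbols mark enrichment (adjusted p under 0.05 and beyond the dotted lines at -1 and 1), which only Rgs2 and Rgs4 reached, on the somata side; scaled by library size alone, all 10 values are below -1.

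Relative to the median of all tested genes, which a change of scaling leaves nearly fixed by construction, the difference in control cultures was -1.46 for Rgs2, -0.96 for Rgs4, 0.67 to 0.68 for Rgs10 and 0.72 for Rgs20. Beside Rgs10 and Rgs20, the summed astrocyte markers were higher in processes, mostly through 1 gene, Gfap. The 7 markers were all tested and summed to 3345 and 3730 CPM in somata control and 12779 and 11085 CPM in processes control libraries, and to 2515 and 3489 CPM in somata PTX and 9464 and 10595 CPM in processes PTX libraries. Gfap, an intermediate filament gene of astrocytes, was the most abundant, at 11111 and 9382 CPM in processes control libraries, and was the only astrocyte marker enriched in processes (log2 fold change 2.60 in control cultures, SE 0.20, adjusted p = 3.15e-06). The others went in both directions: in control cultures Slc1a2 (0.75, adjusted p = 0.00166) and Sox9 (0.61, adjusted p = 0.00291) were higher in processes, while Slc1a3 (-0.56, adjusted p = 0.0143) and Gja1 (-0.38, adjusted p = 0.0268) were lower. The part of these cells in the values of Rgs10 and Rgs20 was not tested.

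Within groups, 6 of the 10 genes, Rgs6, Rgs7, Rgs8, Rgs10, Rgs14 and Rgs17, were higher in the library numbered 1 than in that numbered 2 in all 4 groups, which was the case for 16.7% of all tested genes. Rgs14, for example, was at 6.32 against 2.61 CPM in processes PTX and 8.03 against 3.99 CPM in processes control libraries. Of 8 CA2 markers, 6 were tested and 0 were called with PTX in either compartment, and the most abundant, Pcp4, was at 42.3 and 42.7 CPM in somata control and 46.6 and 43.7 CPM in somata PTX libraries. With the replicate block, 1 CA2 marker was raised (Cacng5) and 2 were lowered (Necab2 and Ntsr2) in somata. Between the compartments, Ntsr2 was enriched in processes and Amigo2 and Cacng5 in somata, in control and in PTX cultures alike.

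The other genes of the family and the pathway were taken from lists of known members. Of 24 other symbols of RGS-domain genes, of which 2 are former symbols of Grk2 and Grk3, 15 were tested and none was called with PTX in either compartment. Their median log2 fold change was -0.03 in somata and -0.08 in processes. The largest values were 0.54 for Rgs9, an R7 paralog, in somata (SE 0.26, adjusted p = 0.353) and -0.54 for Grk3, a receptor kinase, in processes (SE 0.18, adjusted p = 0.139). With the replicate block, Snx14 was raised in somata and Grk3 and Grk5 were lowered in processes. Rgs1, Rgs5, Rgs13, Rgs18 and Rgs21 were at 0 to 8 reads in every library, under the filter. Grk2 was the only one enriched in processes, by 1.53 on the log2 scale in control cultures (SE 0.20, adjusted p = 0.000115), and Snx14 was enriched in somata in PTX cultures.

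The partners of the R7 proteins did not rise with Rgs7. Gnb5 was at 18.8 and 19.0 CPM in somata control and 20.7 and 17.8 CPM in somata PTX libraries, and at 12.04 and 10.8 CPM in processes control and 9.42 and 12.6 CPM in processes PTX libraries. Control and PTX overlapped in both compartments, and the log2 fold changes were 0.03 in somata (SE 0.14) and -0.05 in processes (SE 0.18). Gpr158, a membrane receptor that binds R7 proteins, had values of -0.02 and -0.09. It was enriched in somata, at -1.09 in control cultures (SE 0.20, adjusted p = 0.00117) and -1.15 in PTX cultures (SE 0.20, adjusted p = 0.000749). The other partners of the list were not tested, and Rgs7bp was not analysed here.

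None of the tested G-protein genes was called with PTX in the reported quasi-likelihood fit, with the filter and without the block. Of 16 alpha subunits 12 were tested, with a median log2 fold change of -0.09 in somata and -0.07 in processes. With the replicate block, Gnaq fell in somata, and Gna11 and Gnaz fell in processes, and Gna11 also passed there with the likelihood ratio test and without the filter. Of 14 beta and gamma subunits 11 were tested, and with the block, or without the filter, Gng4 was raised and Gng7 lowered in both compartments. Gng4 also passed in processes with DESeq2. These lists held several genes enriched in processes of control cultures, 5 alpha subunits (Gnai2, Gna11, Gnal, Gna12 and Gna13) and 4 gamma subunits (Gng5, Gng7, Gng10 and Gng12), and the log2 fold changes were 1.77 for Gna12 (SE 0.13, adjusted p = 2.58e-06) and 2.53 for Gng7 (SE 0.21, adjusted p = 5.57e-06). With upper quartile scaling 1 alpha and 3 gamma subunits remained enriched. In PTX cultures 4 alpha and 5 gamma subunits were enriched in processes.

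Among the effectors, 3 of the 4 GIRK channel subunits, the potassium channels opened by G-protein beta and gamma subunits, were tested and 0 were called with PTX. Kcnj6 had log2 fold changes of -0.53 in somata (SE 0.15, adjusted p = 0.0777) and -0.72 in processes (SE 0.19, adjusted p = 0.0748), and it fell in both with the replicate block (adjusted p = 0.00328 and 0.0183), with the likelihood ratio test and without the filter. Kcnj3 was enriched in somata in control and PTX cultures, and Kcnj6 in PTX cultures (-1.01, and -0.997 with the block, short of the required size). Of the phospholipase C beta genes, the effectors of Gq, 3 of 4 were tested and Plcb1 fell in somata, by 0.45 on the log2 scale (SE 0.11, adjusted p = 0.0443). It did not pass when libraries were scaled by library size alone or by the counts outside the mitochondrial genome. In processes Plcb1 fell with the block, with the likelihood ratio test and without the filter, and Plcb3 was raised with the block.

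Of 27 Gi/o- and Gq-coupled receptors 22 were tested, and more of them fell than rose. In somata 4 fell, Htr1a, Npy1r, Sstr3 and Gabbr2, and the Gq-coupled serotonin receptor Htr2a rose with a log2 fold change of 0.73 (SE 0.16, adjusted p = 0.0275). In processes Htr1a and Npy1r fell and none rose. The Gi/o-coupled serotonin receptor Htr1a was at 1.998 and 2.39 CPM in somata control and 0.108 and 0.212 CPM in somata PTX libraries, from 47 and 61 against 3 and 5 reads. Its log2 fold change was -3.75 in somata (SE 0.44, adjusted p = 0.0014) and -3.20 in processes (SE 0.65, adjusted p = 0.0241), where it had 16 and 11 reads in control and 2 and 1 in PTX libraries. The neuropeptide Y receptor Npy1r was at 7.44 and 7.36 CPM in somata control and 2.23 and 2.07 CPM in somata PTX libraries, and its log2 fold change was -1.78 (SE 0.21, adjusted p = 0.00169) in somata and -1.68 (SE 0.35, adjusted p = 0.0271) in processes. With only the 4 processes libraries in the fit, no receptor passed in processes. DESeq2 did not call Htr2a in somata or Htr1a in processes. Scaled by library size alone, Gabbr2 did not pass in somata. In the blocked fit, Sstr2 also rose (0.54, adjusted p = 0.0194) and Oprl1 fell (-0.70, adjusted p = 0.000279) in somata.

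**Figure D4:**
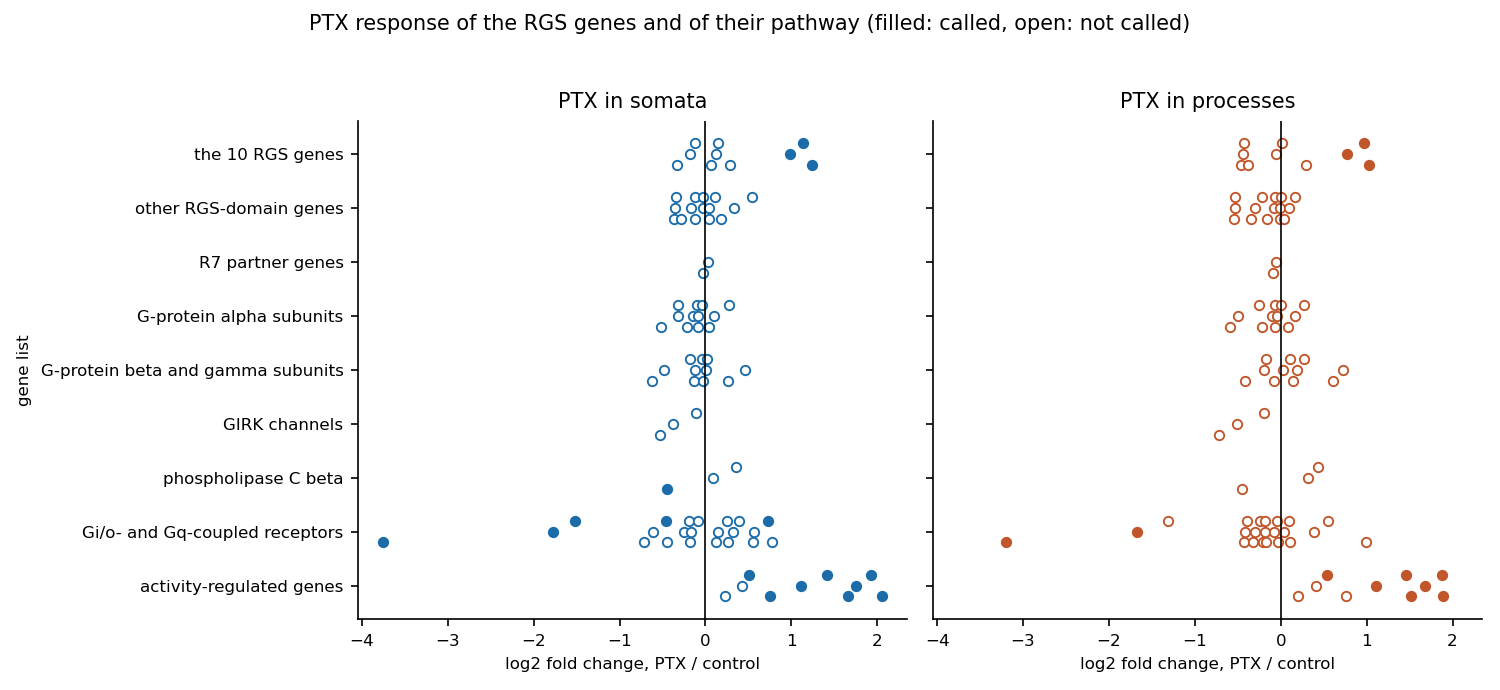
Log2 fold change of PTX against control (horizontal axes) in somata (left) and processes (right) for every tested gene of the RGS set, of the other pathway lists and of the activity-regulated genes (vertical axis). Filled points are called. In somata they are 3 RGS genes, Plcb1, 5 receptors and 8 activity-regulated genes, and in processes 3 RGS genes, 2 receptors and 7 activity-regulated genes.

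Activity-regulated genes rose with PTX, 8 of 10 in somata and 7 of 10 in processes, with median log2 fold changes of 1.27 and 1.29. In the blocked fit 9 rose in each, with Arc in somata (0.43, adjusted p = 0.0212) and Arc (0.40, adjusted p = 0.0491) and Junb (0.76, adjusted p = 0.00612) in processes. Bdnf, a neurotrophin gene, was at 52.1 and 33.3 CPM in somata control and 180 and 174 CPM in somata PTX libraries, and at 12.8 and 12.6 CPM in processes control and 49.7 and 44.7 CPM in processes PTX libraries. Its log2 fold change was 2.05 in somata (SE 0.17, adjusted p = 0.000216) and 1.89 in processes (SE 0.20, adjusted p = 0.00219). The values of Rgs2, Rgs4 and Rgs7 were thus below that of Bdnf in each compartment, and above that of Homer1 (0.51 and 0.54), the smallest of the called genes of this list in both.

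Markers of neuron types also moved with PTX beside the RGS genes. Of 7 inhibitory neuron markers 6 were tested, and Gad1 (0.82, SE 0.17, adjusted p = 0.0247) and Gad2 (0.92, SE 0.20, adjusted p = 0.0328) rose in somata and Gad2 in processes. The list summed to 536 and 486 CPM in somata control and 660 and 599 CPM in somata PTX libraries, and to 301 and 266 CPM in processes control and 405 and 353 CPM in processes PTX libraries. All 6 excitatory neuron markers were tested. Neurod6 fell in both compartments, and Slc17a7, the vesicular glutamate transporter and most abundant gene of the list, rose in processes by 0.73 on the log2 scale (SE 0.14, adjusted p = 0.0172). Their sum was 471 and 451 CPM in somata control and 369 and 329 CPM in somata PTX libraries, and 267 and 214 CPM in processes control and 336 and 302 CPM in processes PTX libraries. With the replicate block, Slc17a6 also rose in somata, and Slc17a7, Grin2b and Tbr1 fell there. In processes Slc17a6 and Gad1 rose with the block, and Grin2b and Tbr1 fell. The part of these shifts in the rise of Rgs2, Rgs4 and Rgs7 was not tested.

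Among the other cells, the astrocyte marker Gja1 fell in somata (-0.61, SE 0.12, adjusted p = 0.0215) and no astrocyte marker was called with PTX in processes. Of the 8 oligodendrocyte lineage markers, all tested, 0 were called with PTX, and they summed to 262 to 419 CPM in somata control libraries and 232 to 384 CPM in somata PTX libraries. Of 7 endothelial and mural markers 2 were tested, and Kdr rose in somata (1.41, SE 0.24, adjusted p = 0.0102), where the list summed to 17.7 and 16.3 CPM in control and 21.7 and 18.8 CPM in PTX libraries. With the block, Aqp4 also fell in somata, while in processes Slc1a3 was raised and Gja1 and Mbp were lowered.

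The genes whose log2 CPM followed that of each RGS gene most closely over the 8 libraries were named by Pearson's r, as a description in which compartment, treatment and depth are shared by all genes. For Rgs4 they were Bdnf (r = 0.998), Rasgrp1 (0.991) and Mvd (0.990), and for Rgs7 Mvd (0.998), Sorcs3 (0.994) and Plk2 (0.992). For Rgs2 they were Dusp6 (0.997), Chst10 (0.995) and Acat2 (0.992). For the other R4 genes they were Zfp316 (0.9749), Homer3 (0.951) and Nudt16 (0.950) for Rgs3, and Foxp4 (0.973), Clic6 (0.949) and Ogdhl (0.942) for Rgs8. Rgs6 was followed by Man1a2 (0.973), Aqp11 (0.970) and Prlhr (0.967), Rgs10 by Rybp (0.990), Cdkl2 (0.990) and Amz2 (0.986), and Rgs14 by Mycbpap (0.988), Prr3 (0.978) and RGD1565611 (0.974). The RZ genes were followed by Plekha2 (0.973), Sms (0.957) and Hacl1 (0.957) for Rgs17 and by Cactin (0.998), AC110824.1 (0.996) and Gpt2 (0.993) for Rgs20. Among themselves, Rgs4 and Rgs7 had r = 0.983, Rgs2 and Rgs4 0.973 and Rgs2 and Rgs7 0.950, each over the same 8 libraries. The other R4 pairs had r = -0.834 for Rgs3 and Rgs4, -0.805 for Rgs2 and Rgs3, -0.344 for Rgs2 and Rgs8, -0.301 for Rgs4 and Rgs8 and 0.437 for Rgs3 and Rgs8. Pairs within the other subfamilies had values of -0.423 for Rgs6 and Rgs7, -0.159 for Rgs17 and Rgs20 and -0.082 for Rgs10 and Rgs14, while Rgs6 and Rgs10 of different subfamilies had 0.824. Rgs10 ran opposite to them, with r = -0.922 to Rgs2, -0.880 to Rgs4 and -0.806 to Rgs7.

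The genes named here next to Rgs2, Rgs4, Rgs7 and Rgs8 on chromosome 13 were not called with PTX in either compartment. They are among the nearest tested protein-coding genes in the RefSeq order, and they were chosen after their values were seen. Beside Rgs2, Uchl5 had log2 fold changes of 0.08 in somata and 0.12 in processes, and Brinp3 of -0.67 (adjusted p = 0.0555) and -0.44, with Rgs1, Rgs13, Rgs18 and Rgs21 between them at 8 reads or fewer. Beside Rgs4, the values were 0.56 and 1.26 (adjusted p = 0.0723) for Nuf2 and -0.34 and -0.33 for Ccdc190. Beside Rgs7, they were 0.35 and 0.06 for Fh. Beside Rgs8, they were 0.38 and 0.31 for Npl and -0.34 and -0.54 for Rgs16, another R4 gene.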

How the data were processed

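Ribosome-depleted, strand-specific RNA-seq was made from somata and processes of control and PTX cultures, with 2 libraries in each of 4 groups. The authors trimmed and aligned the reads to Rnor_6.0, counted them per gene with featureCounts and summed them per symbol, and the deposited table holds these raw counts. The study's methods name the Subread aligner and the submitters' processing notes name STAR, so the aligner is uncertain. Deposited tables of the authors' own comparisons (fold changes, expression means, test statistics and p-values) were not used.

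Genes that exceeded 20 reads in 2 or more libraries were tested with edgeR 4.0.16 (quasi-likelihood test, R 4.3.3) after TMM scaling, in 1 fit over all 8 libraries with a term for each group, with Benjamini-Hochberg adjustment of p-values over 14309 genes. The study used a likelihood ratio test, which is an alternative here, as are DESeq2 1.42.0, other scalings and filters, the replicate block and fits without each library. Log2 CPM used a prior count of 2. SE and 95% intervals came from the quasi-likelihood fit. The test was checked on simulated counts.

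The share of counts from the mitochondrial genome was 22.6% to 26.7% in somata and 68.5% to 72.5% in processes libraries. Replicates correlated at r = 0.978 to 0.987 and none was a duplicate. The labels number the libraries 1 and 2 in each group without saying what a number marks. Deviations of same-numbered libraries correlated at r = 0.274 to 0.540 in all 6 pairs of groups, so the numbers go with shared deviations of the libraries. The reported fit has no block, as in the study, and the blocked values are given where they change a call. The block lowered the common dispersion from 0.0132 to 0.00459.

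The RGS genes, the companion lists and the rules were chosen with earlier results of these data known. All 10 RGS genes are named, with companion genes where they were called, were among the largest changes of a list or were the most abundant marker, and for each RGS gene the 3 genes whose log2 CPM correlated best with its own. Promoter windows and gene order are from RefSeq (GRCr8). A few companion genes are not reported here.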

Additional observations from a re-analysis of the deposited data

How the results depend on the processing

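Of 584 log2 fold changes of RGS genes under the alternatives, 514 kept their direction and side of the threshold. With the sign kept, 14 lost and 20 gained a call. A further 36 changed sign, and 10 of these also gained a call, all by library size alone. The interaction is counted here only for Rgs2, Rgs4, Rgs7 and Rgs8. The number of RGS genes called for PTX in processes was 3, and 1 with only the 4 libraries compared, 5 with the replicate block and 1 to 2 without 1 library. In somata it was 3, and 2 to 3 without 1 library. In control cultures 2 were enriched, 1 with DESeq2, 10 by library size alone and 1 to 2 without 1 library. In PTX cultures 2 were enriched, 10 by library size alone, 4 with upper quartile scaling, 4 with library size outside the mitochondrial genome and 2 to 4 without 1 library.

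Of all tested genes, 513 were called for PTX in somata, 972 with the likelihood ratio test, 1141 without the filter, 2002 with the replicate block and 117 to 237 without 1 library. In processes 535 were called, 949 with the likelihood ratio test, 1129 without the filter, 298 with only the 4 libraries, 1601 with the block and 97 to 420 without 1 library. By library size alone 12116 genes in control and 12195 in PTX cultures were enriched, in place of 2742 and 3009. The interaction was called for 0 genes, 4 with the likelihood ratio test, 4 with DESeq2, 10 without the filter and 15 with the block. The share of raised genes among those called in somata was 58.3%, and 71.5% by library size alone. In processes it was 43.9%, 51.9% by library size alone, 53.7% with only the 4 libraries, and without 1 library from 27.1% (replicate 2 of control left out) to 62.2% (replicate 2 of PTX left out). The share enriched in processes was 60.5% in control cultures, 40.0% with upper quartile scaling, 19.8% outside the mitochondrial genome and 0.404% by library size alone, and in PTX cultures 54.0%, 38.0%, 19.1% and 0.418%.

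The median of all genes between compartments moved to -1.86 (control) and -1.87 (PTX) by library size alone, -0.25 and -0.23 with upper quartile scaling, and -0.51 and -0.50 outside the mitochondrial genome. By library size alone the sign changed in control cultures for Rgs3 (-1.41), Rgs6 (-1.18), Rgs8 (-1.42), Rgs10 (-1.19) and Rgs20 (-1.14), and in PTX cultures for Rgs3 (-1.61), Rgs6 (-1.12), Rgs10 (-1.30), Rgs17 (-1.82) and Rgs20 (-1.22). Outside the mitochondrial genome it changed for Rgs3 (-0.050) and Rgs8 (-0.058) in control and Rgs3 (-0.24) and Rgs17 (-0.44) in PTX cultures. Rgs17, near 0, also changed sign with DESeq2 in control cultures (0.0041) and in PTX cultures with upper quartile scaling (-0.17), without the filter (-0.0077) and with at least 10 reads in every library (-0.057).

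Without 1 library, signs changed for genes that did not pass the test. For PTX in somata the ranges were -0.38 to 0.042 for Rgs3, -0.50 to 0.35 for Rgs6, -0.057 to 0.31 for Rgs8, -0.21 to 0.42 for Rgs14 and -0.10 to 0.21 for Rgs20. In processes they were -0.32 to 0.27 for Rgs6, -1.21 to 0.14 for Rgs14 and -0.087 to 0.10 for Rgs20. Between compartments they were -0.84 to 0.16 for Rgs14 and -0.17 to 0.16 for Rgs17 in control, and -0.17 to 0.24 for Rgs17 in PTX cultures. A lone library was assumed to vary like the other groups. The SE of the PTX effect was larger in processes, where reads were fewer, than in somata for all 10 RGS genes, and largest for Rgs14 in both (0.44 and 0.33). With its size required between compartments, the replicate block changed no call of an RGS gene other than those of Rgs8 and Rgs10 with PTX in processes. The causes of these changes were not tested, apart from the scalings, which by construction shift all genes of a library.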
